A study of Mus musculus with 16 samples.

Results

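The genes described here were 10 macrophage-associated genes of the mouse lung: the complement C1q subunit genes C1qa, C1qb and C1qc, with Csf1r, Adgre1, Cd68, Ctss, Lyz2, Mrc1 and Laptm5. They were followed through the 16 probe sets whose annotation gave a single symbol that was one of these names, out of 12422 probe sets for transcripts and 8251 genes on the MG U74Av2 array. The genes were chosen on macrophage identity and on the signals of C1qa, C1qb and Csf1r in the 2 genotypes at E18.5, which were already known, so that contrast is described here and not tested. The lungs came from mice with a germline null mutation of T1α (Pdpn), whose protein lies on the apical surface of alveolar type I cells, and from wild-type mice, with T1α heterozygotes as the breeders: 5 T1α(-/-) fetal lungs at E18.5 (arrays A to E), 5 T1α(+/+) fetal lungs at E18.5 (arrays I to M), 3 T1α(-/-) lungs at term (arrays F to H) and 3 T1α(+/+) lungs at term (arrays N to P). The labels name no other allele and no agent. Total RNA of whole lung was hybridised, 1 lung per array, and the values are MAS 5.0 signals, linear brightness units that the authors scaled to a common level on every array. Because the mutation is present in every cell and whole lung was used, a macrophage gene can differ through the number of macrophages or through the RNA in each of them, and these cannot be told apart.

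C1q is the recognition molecule of the classical complement pathway. Its A, B and C chains are products of separate genes and assemble into one collagen-like protein, which binds immune complexes, apoptotic cells and bacterial surfaces. Most C1q is made by macrophages and dendritic cells rather than by the liver, which supplies most other complement components. Most tissue macrophages need the receptor encoded by Csf1r and the transcription factor PU.1 (Spi1). The lung is seeded with them before birth, and alveolar macrophages clear surfactant and debris after it.

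The C1q genes lie next to each other in the mouse genome. In GRCm38.p6 C1qb (4:136880126-136886200), C1qc (4:136889801-136892936) and C1qa (4:136895916-136898844) were all on the minus strand of chromosome 4 within 18.7 kb, between Ephb2 and Epha8, and Laptm5 was on the same chromosome at 4:130912890-130936148. The 250 bases before the start site are shown for C1qb and C1qc, the subunits of this cluster for which a RefSeq promoter was given, and for Ctss, the member with the smallest adjusted p between the times below. Capitals mark GAGGAA or its reverse complement TTCCTC, the core of the purine-rich box that PU.1 binds, the only motif searched.
C1qb, 4:136886201-136886450, minus strand: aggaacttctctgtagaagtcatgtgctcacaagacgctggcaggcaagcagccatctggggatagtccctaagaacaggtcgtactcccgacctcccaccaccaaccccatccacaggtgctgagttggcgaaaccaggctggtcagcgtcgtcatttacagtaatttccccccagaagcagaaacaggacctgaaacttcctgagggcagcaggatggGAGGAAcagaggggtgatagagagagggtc
C1qc, 4:136892915-136893164, minus strand: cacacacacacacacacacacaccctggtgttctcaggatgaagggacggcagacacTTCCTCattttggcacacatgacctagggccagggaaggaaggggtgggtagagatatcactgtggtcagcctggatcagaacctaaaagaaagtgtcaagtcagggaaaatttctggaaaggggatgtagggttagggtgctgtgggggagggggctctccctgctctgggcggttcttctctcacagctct
Ctss, 3:95526536-95526785, plus strand: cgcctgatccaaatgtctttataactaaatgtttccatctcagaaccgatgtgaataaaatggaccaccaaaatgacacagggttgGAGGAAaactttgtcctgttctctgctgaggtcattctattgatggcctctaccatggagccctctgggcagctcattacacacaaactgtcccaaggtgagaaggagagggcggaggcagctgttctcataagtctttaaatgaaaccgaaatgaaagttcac
C1qb held the motif on its own strand, 30 to 25 bases before the start. C1qc held it on the opposite strand, 193 to 188 bases before the start. The start used for C1qc is that of the RefSeq promoter table and lies inside the gene span given above, so the bases of its window nearest the start overlap the annotated gene. Promoters of 7 of the 10 genes were given, and 6 of the 7 held the motif on at least 1 strand, against 23.3% of 32851 mouse promoter windows of this length. The Laptm5 window, 4:130913066-130913315 on the plus strand, lies wholly inside the gene span given above, so its copy is not upstream of that span. Mrc1 held 3 copies, Cd68 and Laptm5 held 1 each, and Lyz2 held none. These are matches of letters only.

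The genotype labels, the signal level of the macrophage markers and the RNA quality were checked first. Whether the genes reported macrophages in these lungs was not tested. Pdpn had signals of 1.4 to 30.0 on the T1α(-/-) arrays and 39.7 to 214.9 on the T1α(+/+) arrays, with no overlap. Not every macrophage marker was measured above background. Adgre1, which encodes F4/80 and defines mature mouse macrophages, gave signals of 3.5 to 17.0 on all 16 arrays by its brighter probe set, near the mean of the control probe sets for absent transcripts (3.58 to 11.1 on 15 arrays, 35.3 on array I). Mrc1, the mannose receptor, had signals of 17.0 to 63.2. Both fell below the filter of every comparison, so 8 of the 10 genes were tested. The ratio of the 3' to the 5' GAPDH control probe sets, a measure of RNA integrity and of labelling, was 1.84 to 2.63 on term arrays G, N and O and 0.827 to 1.11 on term arrays F, H and P. At E18.5 it was 1.43 to 1.72 on arrays B, K and L and 0.962 to 1.16 on the other 7.

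At E18.5 C1qa and C1qb had means about equally far above those of T1α(+/+) lungs, while C1qc and most other macrophage genes lay closer to them. C1qa had signals of 213.5, 196.9, 186.6, 158.7 and 245.4 on the 5 T1α(-/-) arrays, against 67.7, 71.5, 149.2, 136.6 and 124.0 on the 5 T1α(+/+) arrays. It was the one member whose genotypes did not overlap, and its lowest T1α(-/-) signal, 158.7, stood just above its highest T1α(+/+) signal, 149.2. Over all 5831 probe sets that passed the filter, 0.669% had every T1α(-/-) array above every T1α(+/+) array. C1qb had 238.7, 138.8, 196.5, 110.5 and 199.7 in T1α(-/-) lungs, against 40.9, 125.1, 111.3, 108.6 and 98.8 in T1α(+/+) lungs. Array D lay inside the T1α(+/+) range, and array I, whose C1qb signal was the lowest, was the array with the highest background. C1qc had 569.7, 445.9, 452.5, 292.0 and 411.6 in T1α(-/-) lungs, against 318.3, 261.9, 524.4, 395.7 and 234.6 in T1α(+/+) lungs. These ranges overlapped widely, with array K of the T1α(+/+) group above 4 of the 5 T1α(-/-) arrays. On the log2(signal + 16) scale, which understates differences between low signals, the T1α(-/-) minus T1α(+/+) differences were 0.83 for C1qa, 0.79 for C1qb and 0.34 for C1qc. The dimmer second C1qb probe set, below the filter, had a difference of -0.22. Its means were 40.6 in T1α(-/-) and 53.1 in T1α(+/+) lungs, and its highest signal, 120.9, was on array I. The median difference of all probe sets past the filter was 0.04.

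**Figure D1:**
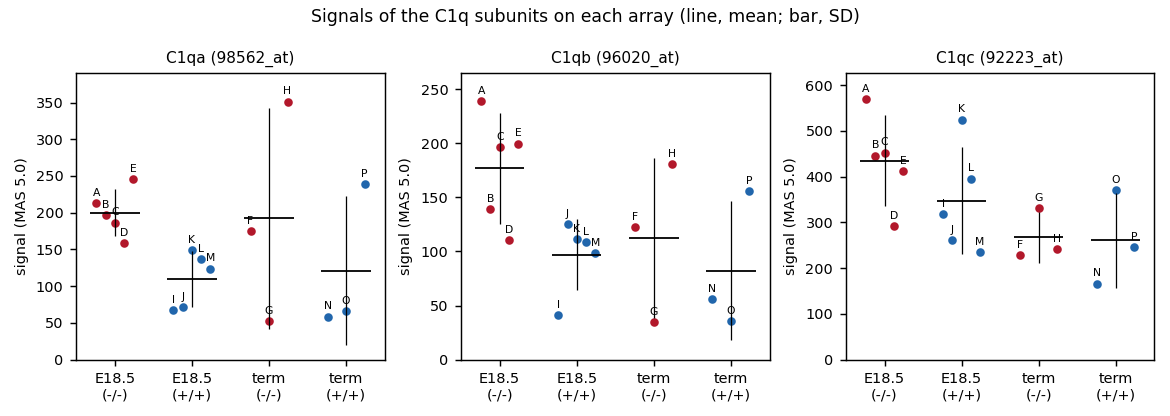
MAS 5.0 signal (linear axis) of C1qa, C1qb and C1qc on each of the 16 arrays, labelled by array letter, in T1α(-/-) (red) and T1α(+/+) (blue) lungs at E18.5 and term. The horizontal line is the group mean and the vertical bar 1 SD. C1qa is separated by genotype at E18.5 but not at term, where arrays H and P are highest in C1qa and C1qb and not in C1qc.

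Csf1r, the receptor for colony stimulating factor 1 on which most tissue macrophages depend, had 129.8, 140.7, 122.0, 104.9 and 103.0 in T1α(-/-) lungs at E18.5, against 72.2, 66.4, 100, 88.5 and 107.8 in T1α(+/+) lungs. At 107.8, array M was the one T1α(+/+) array inside the T1α(-/-) range, and the log2 difference was 0.41. The dimmer second Csf1r probe set, below the filter, had 0.11. Lyz2, which encodes the lysozyme of macrophages and, in lung, of type II cells, had 920.3, 377.5, 1542.7, 1747.6 and 2003.9 in T1α(-/-) lungs, against 721.9, 579.1, 166.7, 1431.5 and 1604.1 in T1α(+/+) lungs. Its log2 difference of 0.69 came with an almost complete overlap of the genotypes, and it was 0.20 without array K and 1.08 without array B. Ctss, a lysosomal cysteine protease that also cleaves the invariant chain, had 162.4, 113.7, 234.6, 185.2 and 285.2 in T1α(-/-) lungs, against 180.7, 194.3, 115.1, 215.1 and 297.3 in T1α(+/+) lungs. The genotypes had nearly equal Ctss means, 196.2 ± 66.1 and 200.5 ± 65.8 (SD, n = 5 each), and the log2 difference was -0.03. Cd68, a lysosomal membrane glycoprotein, averaged 99.1 ± 27.9 in T1α(-/-) lungs and 89.0 ± 30.9 in T1α(+/+) lungs (SD, n = 5 each), a log2 difference of 0.14. The lowest Cd68, Ctss and Lyz2 signals in each genotype were those of arrays B and K, the arrays of highest GAPDH ratio in their groups, where C1qa and C1qc were not low.

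Laptm5, a lysosomal protein of haematopoietic cells, was measured by probe sets that disagreed. The brighter one had 160.9 to 285.5 in T1α(-/-) lungs and 141.7 to 243.5 in T1α(+/+) lungs, with a log2 difference of 0.26. The other had 80.7 to 251.9 in T1α(-/-) lungs and 25.2 to 249.9 in T1α(+/+) lungs, with a log2 difference of 0.86. On array J they gave 243.5 and 25.2. Mrc1 had 17.0 to 33.2 in T1α(-/-) lungs and 17.5 to 63.2 in T1α(+/+) lungs, and Adgre1 7.3 to 17.0 in T1α(-/-) lungs and 6.8 to 12.8 in T1α(+/+) lungs, with log2 differences of -0.26 and 0.09 on low signals. The median log2 difference of the 10 genes was 0.30. Further macrophage markers had a median of 0.13 over the 14 that passed the filter, 9 of them positive, and -0.10 over all 35 on the array. Of the 14, the highest were the ligand Gas6 at 0.52, Coro1a at 0.30 and Lgals3 at 0.28. Spi1 had 0.20 and Cd14 0.07, while Mpeg1 had -0.47 and Irf8 -0.145. Complement genes other than C1q had a median of -0.02 over 8.

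**Figure D2:**
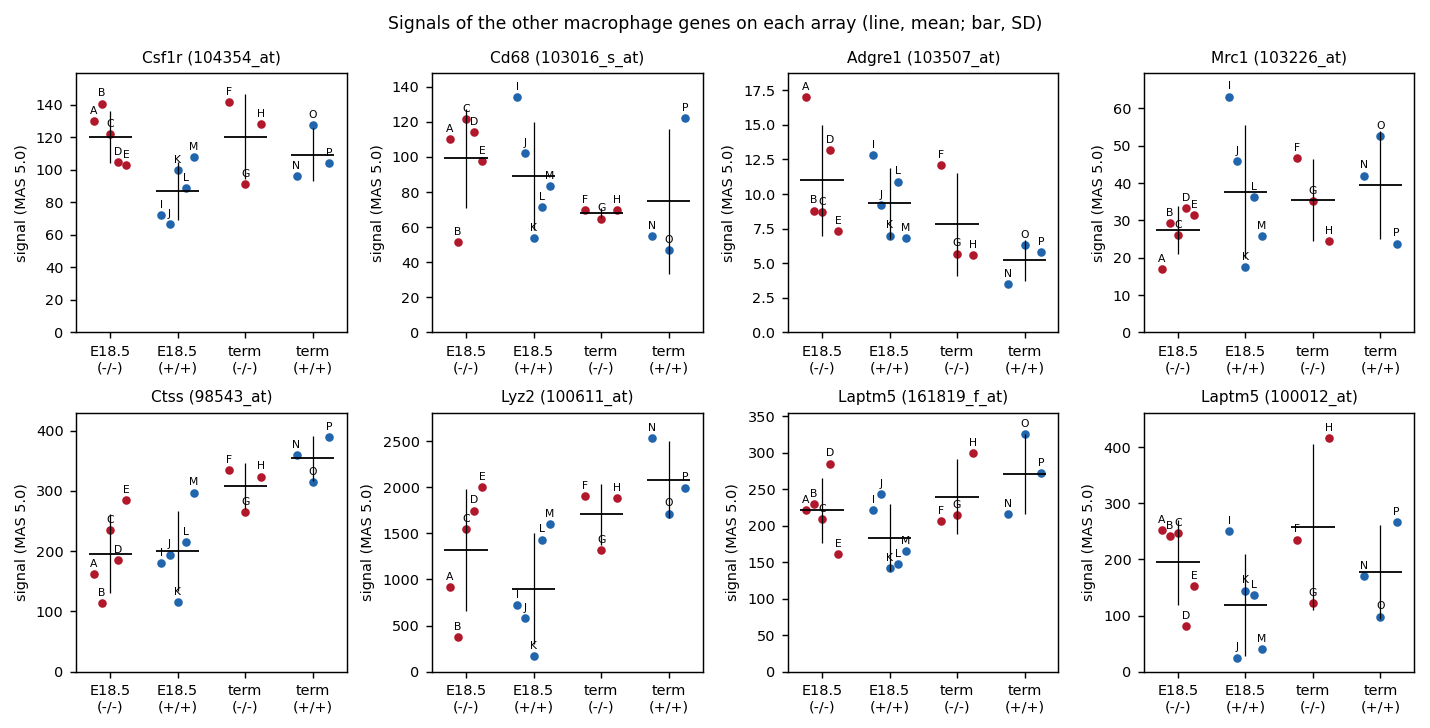
MAS 5.0 signal (linear axes that differ between panels) of Csf1r, Cd68, Adgre1, Mrc1, Ctss, Lyz2 and both main Laptm5 probe sets on each array, labelled by array letter, in T1α(-/-) (red) and T1α(+/+) (blue) lungs at E18.5 and term; the line is the group mean and the bar 1 SD. The genotypes overlap for every gene at both times, Ctss lies higher at term, and Adgre1 stays at or under 17.0.

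At term, on the arrays that the choice of the genes did not rest on, no member passed the test between genotypes. C1qa had 174.9, 52.0 and 351.2 in T1α(-/-) lungs, against 58.6, 66.3 and 238.9 in T1α(+/+) lungs. C1qb had 122.3, 34.4 and 180.8 in T1α(-/-) lungs, against 55.7, 35.3 and 155.9 in T1α(+/+) lungs. Both genes were high on arrays F, H and P and low on G, N and O, across the genotypes. C1qc had 229.2, 331.6 and 241.5 in T1α(-/-) lungs, against 166.1, 370.8 and 245.5 in T1α(+/+) lungs. Its highest term signals were those of G and O, where C1qa and C1qb were lowest in their groups or nearly so. With limma, the log2 difference was 0.54 ± 0.61 (SE) for C1qa, 0.37 ± 0.53 for C1qb and 0.08 ± 0.31 for C1qc, each with an adjusted p of 0.9998 (n = 3 each).

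The C1qa and C1qb values at term changed with single arrays in both directions. Without array H their log2 differences were -0.03 and -0.04, and without O 0.29 and 0.0012. Without G they were 1.19 and 0.94, and without P 1.10 and 0.87. Leaving out N gave 0.22 and 0.24, and leaving out F 0.44 and 0.21. Without G, N and O together, the arrays of high GAPDH ratio, they were 0.05 and -0.06. Of the other members, Csf1r had 141.6, 91.3 and 128.0 in T1α(-/-) lungs, against 95.9, 127.6 and 104.3 in T1α(+/+) lungs. Ctss had 335.2, 264.3 and 323.9 in T1α(-/-) lungs, against 359.6, 314.3 and 389.1 in T1α(+/+) lungs. Lyz2 had 1907.5, 1321.3 and 1885.3 in T1α(-/-) lungs, against 2532.6, 1714.2 and 1996.3 in T1α(+/+) lungs. In all 3 the genotypes overlapped, and the log2 differences with SE were 0.11 ± 0.23 for Csf1r, -0.20 ± 0.23 for Ctss and -0.29 ± 0.26 for Lyz2, while Cd68 had -0.02 ± 0.30 and Laptm5 -0.17 ± 0.26 (limma, adjusted p 0.9998 for each). Among all 5834 probe sets tested 0% passed the adjusted threshold and 40 had an unadjusted p under 0.05, none of them a member. The 40 are fewer than evenly spread p-values would give, and the reason was not tested. The genotypes did not overlap in 3.29% of all probe sets tested at term and in none of the member probe sets. The exact permutation p of the member probe sets was 0.2 to 1.0, and 0.1 is the smallest that 3 arrays against 3 allow.

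**Figure D3:**
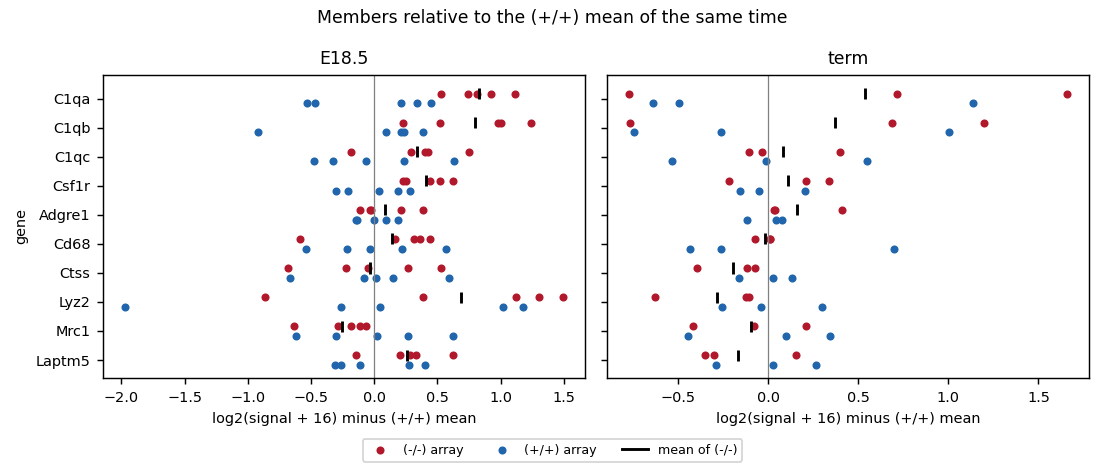
Each lung's log2(signal + 16) minus the T1α(+/+) mean of the same time, for the brightest probe set of each of the 10 genes, with T1α(-/-) arrays in red above T1α(+/+) arrays in blue and the T1α(-/-) mean as a black bar. At E18.5 the C1qa and C1qb means lie 0.83 and 0.79 above the T1α(+/+) mean, and at term the arrays of both genotypes spread across each other.

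Between E18.5 and term, 3 members differed over both genotypes: Ctss and Lyz2 were higher at term, and C1qc was lower. Ctss averaged 307.8 ± 38.1 in T1α(-/-) and 354.3 ± 37.7 in T1α(+/+) lungs at term (SD, n = 3 each), against 196.2 and 200.5 at E18.5. Its term minus E18.5 log2 difference was 0.74 ± 0.19 (SE, limma, adjusted p = 0.00452), and it passed under every alternative run, also without arrays G, N and O (0.86, adjusted p = 0.0352). Lyz2 averaged 1705 ± 332 in T1α(-/-) and 2081 ± 416 in T1α(+/+) lungs at term (SD, n = 3 each), against 1318 ± 661 and 901 ± 602 at E18.5 (SD, n = 5 each). The log2 difference was 1.04 ± 0.39 (limma, adjusted p = 0.0364). Sftpc, a marker of type II cells, was lower at term over the same arrays, by a log2 difference of -1.45 (limma, adjusted p = 3.62e-05). The part of type II cells and of macrophages in the Lyz2 difference was not tested. Taken by genotype, with no test, the Lyz2 difference was 0.56 in T1α(-/-) lungs and 1.53 in T1α(+/+) lungs. C1qc averaged 267.4 ± 55.9 in T1α(-/-) and 260.8 ± 103.2 in T1α(+/+) lungs at term (SD, n = 3 each), against 434.3 ± 99.5 and 347.0 ± 116.8 at E18.5 (SD, n = 5 each), a log2 difference of -0.53 ± 0.20 (limma, adjusted p = 0.0386).

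The Lyz2 result holds for 1 of its probe sets. The probe set shared by Lyz1 and Lyz2, which was not tested as a member, averaged 2499 in T1α(-/-) and 2738 in T1α(+/+) lungs at term, against 3191 and 2427 at E18.5. The dim second Lyz2 probe set, under the filter, had a log2 difference of 0.03. The Lyz2 and C1qc calls were also near the threshold. Lyz2 did not pass when array A, B, F, H, J, N or P was left out (adjusted p 0.0534 to 0.089) and C1qc did not when A, B, C, F, H, K, L, N or P was (0.0509 to 0.143). Without G, N and O the values were 1.11 for Lyz2 (adjusted p = 0.169) and -0.61 for C1qc (0.0888). C1qa and C1qb did not pass, with log2 differences of -0.20 ± 0.30 (adjusted p = 0.612) and -0.54 ± 0.29 (0.140), and without G, N and O the differences were 0.69 (0.0706) and 0.25 (0.571). Csf1r had 0.14 (0.450), Cd68 -0.33 (0.198) and Laptm5 0.32 (0.120). Differences between the times were common over the array: 21.1% of the 6409 probe sets tested were higher at term and 23.0% lower, and 2 of the 8 members tested were higher and 1 was lower. Time and any batch of preparation cannot be told apart.

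Of the 17 genes of the macrophage list tested beside the members, 6 were higher and 3 lower at term. Over all probe sets tested the shares were 21.1% higher and 23.0% lower. Cd14, the lipopolysaccharide co-receptor, had a log2 difference of 1.11 (limma, adjusted p = 0.000113). Chil3, a chitinase-like protein of alveolar macrophages, had 0.90 (0.00166) and Mpeg1, a pore-forming protein of phagocytes, 0.76 (0.00184). Gas6, a secreted ligand that bridges apoptotic cells to their receptors, had 0.82 (0.00224). Gas6 is also counted in the clearance list below and does not mark macrophages alone. Spi1 had 0.51 (0.0331). Coro1a, an actin-binding protein of leukocytes, fell by 0.82 (0.000794), as did Hmox1, the haem-degrading oxygenase, by 0.47 (0.0121). Neutrophil markers moved as well, with S100a9 at 1.04 (0.000363) and S100a8 at 0.92 (0.0026) higher and Elane lower among 7 tested, and their part in these results was not tested. The summed neutrophil signal ran from 791.3 to 915.5 in T1α(-/-) and 1078.2 to 1455.6 in T1α(+/+) lungs at term, against 707.4 to 902.7 and 581.3 to 1246.4 at E18.5. This sum was not tested, and none of the 6 neutrophil markers tested at term passed between genotypes. S100a8 and S100a9 weighed heavily in it, with term means of 255 and 133 in T1α(-/-) and 441 and 251 in T1α(+/+) lungs. Csf3r had 152 and 163.

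The counts of the next lists stand against 21.1% higher and 23.0% lower at term over all 6409 probe sets tested. No list was tested against these shares, so the counts are not results about the lists. Among 9 complement genes tested beside C1q, 4 were higher at term and 2 lower. Hc, which encodes C5, had a log2 difference of 1.50 (limma, adjusted p = 3.22e-06), C1ra, the protease that C1q carries, 0.61 (0.00645), Serping1, the inhibitor of that protease, 0.57 (0.0112), and Cd55, the decay-accelerating factor, 1.11 (0.000293). C5ar1, the C5a receptor of myeloid cells, fell by 0.89 (8.3e-05) and C2 by 0.50 (0.0379). A further list held colony stimulating factors, their receptors and myeloid regulators, not only genes of CSF1 receptor signalling. In it 4 of 10 tested were higher, Cebpb, Cebpa, Spi1 and Irf8, and Csf3 and Fes were lower. Of 20 lysosomal genes tested 6 were higher, led by the protease Lgmn at 1.50, and Npc2 and Ctsk were lower. Clearance receptors and lectins had 3 of 9 higher and 2 lower. The lists share genes, and none of their genes passed between genotypes at term.

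The C1q subunits were compared from lung to lung. None of their 3 pairs passed the adjustment, and no test compared one pair with another. After the group means were removed, C1qa and C1qb deviated together over the 16 arrays (Pearson's r = 0.86, exact permutation within groups p = 0.00554, Spearman's rho = 0.75, exact p = 0.014), but after adjustment over the 24 pairs computed the p was 0.133 and 0.335. Without the arrays farthest from the median, G and P, r was 0.56 (exact p = 0.0719). At E18.5 alone it was 0.56 (exact p = 0.110) and at term alone 0.97 (exact p = 0.0556), so the pooled value leans on term arrays. With the GAPDH ratio taken out it was 0.73 (approximate permutation p = 0.00504, adjusted 0.121). C1qc had r = 0.03 with C1qa (rho = 0.14, exact p = 0.930) and r = -0.08 with C1qb (rho = -0.0029, exact p = 0.810). These values moved with the arrays used. With the GAPDH ratio taken out they were 0.53 (approximate permutation p = 0.0548, adjusted 0.188) and 0.45 (0.0992, adjusted 0.260). Without the arrays farthest from the median they were 0.44 (exact p = 0.101) and 0.10 (0.849). The E18.5 values were 0.55 for C1qa with C1qc (exact p = 0.172) and 0.37 for C1qb with C1qc (0.347), and the term values were -0.27 (0.611) and -0.48 (0.389). The signal of C1qa as a ratio to that of C1qc, of which only the variation between arrays can be read, ran from 0.157 on array G to 1.454 on array H.

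**Figure D4:**
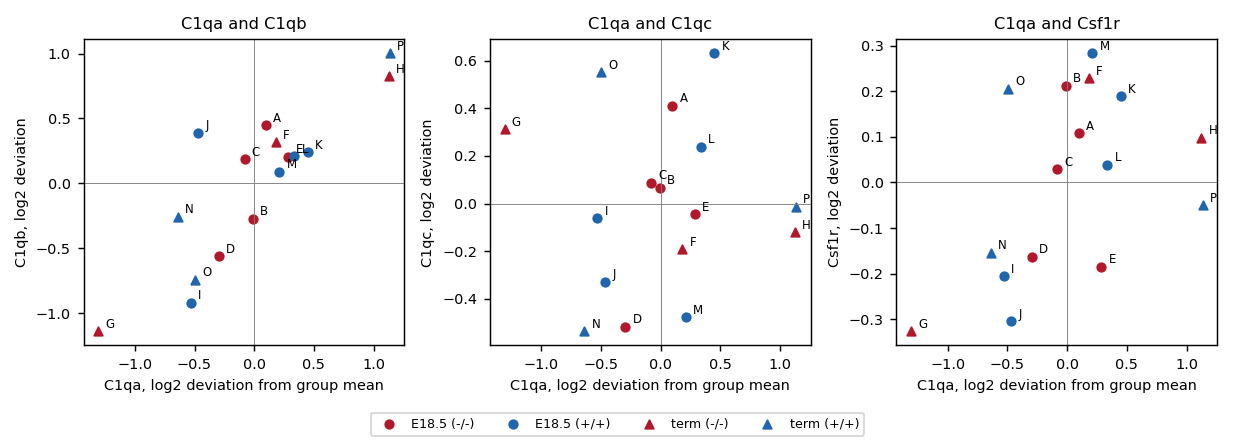
Deviation of C1qb, C1qc and Csf1r from the group mean (y axes, log2(signal + 16)) against that of C1qa (x axes) in each lung, with T1α(-/-) in red, T1α(+/+) in blue, circles for E18.5 and triangles for term. Over the 16 arrays r with C1qa is 0.86 for C1qb, with arrays G, H and P at the ends, 0.03 for C1qc and 0.49 for Csf1r, and none passed the adjustment.

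No pair of a C1q subunit with another macrophage gene passed the adjustment either. C1qa had r = 0.49 with Csf1r (rho = 0.43, exact p = 0.134, adjusted 0.536), 0.66 at E18.5 and 0.48 at term, and 0.46 without arrays G and P. Its values with Adgre1, Cd68, Ctss, Lyz2 and Laptm5 were between -0.09 and 0.19 over the 16 arrays. For Cd68 the pooled 0.14 joined values of opposite sign, -0.65 at E18.5 and 0.67 at term. It was -0.54 without arrays G and P and -0.64 with the GAPDH ratio taken out (approximate permutation p = 0.0215, adjusted 0.166). C1qa and C1qb both ran against Mrc1, at r = -0.60 and -0.61 (exact p = 0.0269 and 0.0300, both adjusted 0.240), on Mrc1 signals under the filter. C1qc ran against Lyz2 at r = -0.55 (exact p = 0.0495, adjusted 0.279), and -0.30 without the 2 farthest arrays. In all, 4 of the 24 pairs had an unadjusted p under 0.05 by Pearson's r and 3 by Spearman's rho, and 0 passed by either. At E18.5 alone 1 pair passed, C1qa with the brighter Laptm5 probe set at r = -0.93 (exact p = 0.00146, adjusted 0.035). At term the same pair had r = 0.47. The E18.5 value rests on 1 of 2 Laptm5 probe sets that disagreed, and it was not computed for the other. On array D, C1qa was lowest among the T1α(-/-) lungs at E18.5 (158.7). There the brighter Laptm5 probe set was highest (285.5) and the other lowest (80.7).

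Of 10 members tested within groups against the GAPDH ratio, 1 passed, Cd68 (r = -0.72, rho = -0.73, exact permutation p = 0.000534, adjusted 0.00534), with r = -0.87 at E18.5, -0.73 at term and -0.87 without arrays G and O. The share of all probe sets that would pass was not computed, so this relation cannot be called particular to Cd68. The probe sets most like C1qa, named below, had r of -0.45 to -0.72 with the GAPDH ratio. C1qb had r = -0.73 (adjusted exact p = 0.0952), of which -0.02 at E18.5 and -0.999 at term. C1qa had -0.66 (adjusted exact p = 0.196), of which 0.51 at E18.5 and -0.96 at term. C1qc had the opposite sign, 0.48 (adjusted exact p = 0.196). No member passed with the β-actin ratio, where the lowest adjusted exact p was 0.516.

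**Figure D5:**
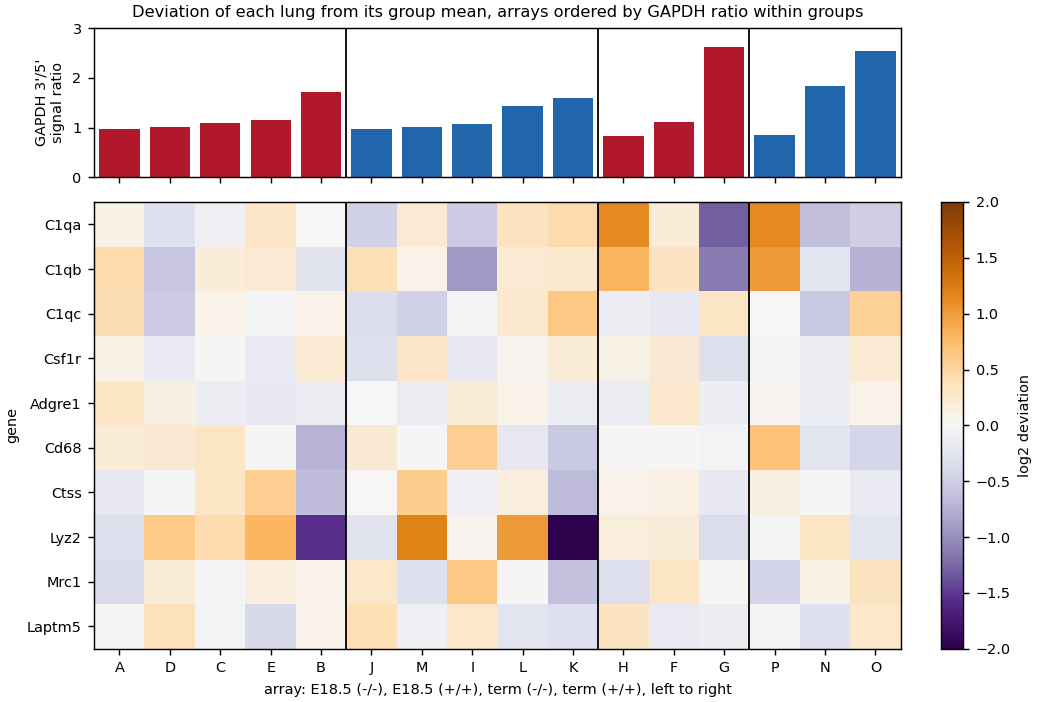
Upper bars: the ratio of 3' to 5' GAPDH signal of each array, red for T1α(-/-) and blue for T1α(+/+), with arrays in rising order within each group. Lower map: each gene's log2(signal + 16) deviation from its group mean on the same arrays, orange above and purple below. C1qa and C1qb are low on term arrays G, N and O, and Lyz2 is lowest on E18.5 arrays B and K.

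Over all 6409 probe sets that passed the filter of the time comparison, C1qb ranked 40 by likeness of its deviations to those of C1qa, Csf1r 777, Ctss 1994, Cd68 2246, Lyz2 2724, C1qc 2825 and Laptm5 3515. The probe sets most like C1qa were of Arl3 (r = 0.94), Csrp1 (0.94 and 0.92), Tpi1 (0.93), Pfdn2 (0.93), Atp6v0b (0.92), Mfap2 (0.92) and Pcx (0.91), none of them on the macrophage list. The median r of the probe sets of other genes with C1qa was -0.04, and 11.5% had 0.5 or more. The mean of the 7 members other than C1q was most like Tmem97 (0.96), Scd1 (0.93) and Fdps (0.92), which act in sterol and fatty acid metabolism, and then Nme6, Mapre1, Tcn2, Rala and Ankrd46 (0.91 to 0.87). That mean was led by Lyz2 (r = 0.90) and Ctss (0.82) and had r = 0.02 with C1qa, 0.04 with C1qb and -0.55 with C1qc. These values are a description over 16 arrays that share their scaling and RNA quality.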

How the data were processed

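Total RNA of 16 mouse lungs was hybridised to Affymetrix MG U74Av2 arrays. The values are intensity signals that the authors computed with MAS 5.0, scaled on each array and deposited on a linear scale; the 2% trimmed mean was 100.04 to 100.06 on every array. Gene names came from the platform annotation: of 12488 probe sets (66 of them controls) 10833 had 1 symbol, 396 several and 1193 none. A probe set shared by Lyz1 and Lyz2 was left out.

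Signals were tested as log2(signal + 16) with limma 3.58.1 in R 4.3.3 (moderated test with an intensity trend, two-sided, Benjamini-Hochberg over all probe sets tested, adjusted threshold 0.05). Probe sets entered a fit if the median of at least 1 group was above the signal that 45% of the values exceeded (48.6 at term, 52.1 over 16 arrays, 54.2 at E18.5). The probe set of the highest mean log2 signal stood for a gene. Deviations from group means were correlated and tested against all 518400 orders of the arrays within groups. With the GAPDH ratio taken out, residuals were permuted, so those p-values are approximate. The fits and the correlations were checked on simulated data. Promoters and positions are RefSeq's for GRCm38.p6; GAGGAA was searched on both strands. Alternatives were other scalings, pseudocounts, filters, array weights, Xist or GAPDH ratio as a covariate, and arrays left out. No 2 arrays shared over 1.16% of their signals.

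The members and lists were chosen with earlier results of these data known. All members are named. Besides them, the 8 probe sets most like C1qa, the 8 most like the mean of the other members, and up to 4 genes of each list with the lowest p were to be named. Litter, sex and batch were not given in the sources used here. The p-values set each difference or correlation against the spread between these lungs, and the number of arrays limits their precision. As litter was not given, whether the lungs were independent is not known.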

Additional observations from a re-analysis of the deposited data

Results flagged for a closer look

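A single far array was found in 4 of the 32 member groups of 5 arrays, where chance flags about 1 in 20, and all 4 were in secondary probe sets with low signals. In T1α(+/+) lungs at E18.5, array I was far above the other 4 in 3 probe sets. The secondary C1qb probe set had 120.9 there, with a gap of 0.817 of the group's range. The secondary Cd68 probe set had 7.2, with a gap of 0.828, and the secondary Lyz2 probe set had 38.0, with a gap of 0.809. Array I also had the highest control probe sets for absent transcripts (35.3) and the highest median signal (61). In T1α(-/-) lungs at E18.5, array B had 35.5 for the secondary Cd68 probe set, with a gap of 0.911 of the range, while the brighter Cd68 probe set was lowest on that array. The causes were not tested.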

How the results depend on the processing

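No paired analysis was possible because the arrays carry letters that no groups share. The E18.5 differences, which were not tested, moved by less than 1 SD of the replicates but by over 1.5 times in several genes: with 1 array left out Lyz2 ran from 0.20 to 1.08, Cd68 from 0.0039 to 0.32, C1qc from 0.22 to 0.50, Ctss from -0.20 to 0.13 (0.017 with median centring) and the median of the 10 genes from 0.19 to 0.35. At term 0 members passed in every alternative, the methods' t-test included. Signs turned at term, without any call, for Cd68 (0.0026 with signals under 1 set to 1, 0.16 with array weights, 0.0021 with Xist; it was -0.69 without arrays G, N and O) and for C1qc (-0.017 with array weights, -0.10 with Xist, -0.058 without G, N and O), and for C1qb (-0.059) and the low Mrc1 (0.34) in that last setting. C1qa and C1qb were 1.13 and 0.92 with Xist, 0.91 and 0.76 with array weights, and 0.22 and 0.093 with the GAPDH ratio as a covariate. The Xist signal was 75.8 on term array G and 6.7 to 10.6 on the other term arrays, so at term the Xist covariate mainly set array G apart. At E18.5 Xist ran from 14.3 to 99.8, above every term array but G, so Xist and time are partly tied. Leaving out 1 array gave -0.027 to 1.19 for C1qa, -0.040 to 0.94 for C1qb, -0.18 to 0.36 for C1qc, -0.0031 to 0.27 for Csf1r and -0.23 to 0.33 for Cd68.

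Between the times, 3 members passed in the main setting, 1 with Xist as a covariate, 1 without arrays G, N and O, and 1 to 3 with 1 array left out. C1qc did not pass with median centring (-0.40, adjusted p = 0.164) or with no filter (0.0507), Lyz2 did not with array weights (0.77, 0.0516), and neither did with Xist (0.171 and 0.0837). With array weights C1qb (-0.66, 0.0325) and Cd68 (-0.44, 0.0296) passed, as both did without array P (0.0287 and 0.0441), and Laptm5 passed with median centring (0.45, 0.0323). C1qa turned to 0.058 with the GAPDH ratio and to 0.69 without G, N and O, where C1qb was 0.25 and Cd68 0.032; with 1 array left out C1qa ran from -0.49 to 0.12.

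Of the 24 pairs, 0 passed in the main setting, and 1 with median centring (C1qa with C1qb, r = 0.88), 1 at E18.5 alone and 0 to 1 with 1 array left out. C1qa with C1qb was 0.77 to 0.93 with 1 array left out, passing without J, and -0.44 with the dimmer C1qb probe set. C1qa with C1qc was -0.081 after quantile normalization, -0.27 at term alone, 0.55 at E18.5 alone, 0.53 with the GAPDH ratio removed, 0.44 without the farthest arrays and -0.14 to 0.28 with 1 array left out. C1qb with C1qc was 0.15 with median centring, 0.37 at E18.5 alone, 0.45 with the GAPDH ratio removed, 0.14 with the other probe set, 0.10 without the farthest arrays and -0.21 to 0.14 with 1 left out. C1qb with Mrc1 was 0.41 with the other probe set. The GAPDH ratio, term-only, other-probe-set and G, N and O settings were chosen after seeing the data, and the causes of these changes were not tested. The filter alternatives do not apply at E18.5, where no test was run. With 3 arrays in each term group, only large differences could pass.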
